A study of Mus musculus with 4 samples.

Results

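Cytosolic ribosomal proteins build the large and small subunits that translate nuclear-encoded messages, and their levels were followed along the tibialis anterior, a fast muscle of the mouse hind limb. Members were all table rows of 1 gene whose symbol begins with Rpl or Rps followed by a digit, plus Rpsa, Rplp0, Rplp1 and Rplp2, with pseudogene names ending in -ps and the Rps6k kinases left out. This gave 93 of 28989 single-gene rows, of which 86 are protein-coding and 7 carry a pseudogene class. The study cut 4 muscles, all in 1 group with no treatment, genotype, strain or age in the labels, into frozen sections and sequenced the RNA of each section with its own barcode (TOMO-seq, CEL-Seq2 chemistry). The 171 sections kept by the authors (37, 45, 46 and 43 in muscles 1 to 4) were summed into 5 zones of equal length per muscle. The labels do not say whether the muscles came from separate animals, so the p-values apply to these 4 samples. In the main tests they rest on how differences between zones vary from muscle to muscle, not on differences in level between muscles. The labels also do not say which end of a muscle was cut first, and the first end here means the low barcode numbers.

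A ribosome joins a large subunit, which forms peptide bonds, to a small subunit, which reads the message. Each carries a single copy of most of its proteins, and a stalk of Rplp0, Rplp1 and Rplp2 recruits the elongation factors. The genes have left many processed pseudogenes in the mouse genome, and striated muscle replaces part of Rpl3 by its paralog Rpl3l. In bulk sections, a lower level can mean fewer cells of a type or less RNA per cell, and these cannot be told apart.

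Total counts were 19102441, 17256419, 27174919.8 and 23011841 in muscles 1 to 4, and a single section held between 86744 and 1171405 counts. Mitochondrially encoded genes took 58.6% to 66.5% of the counts. Muscles 1 and 2 used another set of section barcodes than muscles 3 and 4. Levels of whole muscles are given in CPM (counts scaled to the same library total, the usual CPM unit). Levels of zones are TMM-scaled CPM, where edgeR's TMM factors of 0.738 to 1.25 also adjusted each library total. The 2 scales can therefore differ for the same muscle. Muscle fibre genes led the tissue markers, with a sum of 38734 to 48267 TMM-scaled CPM in the middle zone, whereas no satellite cell marker passed the filter on low counts. No member approached the limit of the molecular identifiers: Rpl4 used the most in 1 section, 1189, or 29.03% of those possible.

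The assignment of reads between a gene and its copies had to be settled first, because the tables also hold rows of single pseudogenes and rows that name several genes at once. Rps13, a small subunit protein, shows why. The final 60 coding bases of Rps13 (GRCm38, GENCODE M21 transcript, chromosome 7, 116331550 to 116332404, minus strand, across an intron) are set beside the matching stretch of its annotated copies, with capitals for the bases that differ from Rps13. These stretches are shown because 3′-end reads fall near them.
Rps13: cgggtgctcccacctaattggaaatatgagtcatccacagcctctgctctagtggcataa
Rps13-ps1: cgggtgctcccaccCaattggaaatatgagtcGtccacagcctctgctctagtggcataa
Rps13-ps4: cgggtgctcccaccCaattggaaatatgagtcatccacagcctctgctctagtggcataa
Rps13-ps5: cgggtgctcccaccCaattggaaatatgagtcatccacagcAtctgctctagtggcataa
Gm15483: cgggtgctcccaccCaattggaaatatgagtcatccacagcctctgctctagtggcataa
Rps13-ps1 (chromosome 8, 87048116 to 87048175, plus strand) and Rps13-ps5 (chromosome 11, 61205720 to 61205779, minus strand) differ from Rps13 at 2 of the 60 bases. Rps13-ps4 (chromosome 8, 119602170 to 119602229, minus strand) and Gm15483 (chromosome 7, 133738479 to 133738538, minus strand) differ at 1.

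Other members cannot be told from a copy over this stretch at all. The final 60 coding bases of Rpl10a, a large subunit protein, are the same in Rpl10a-ps1 (chromosome 1, 64993951 to 64994010, minus strand), and those of Rps27 are the same in its intronless relative Rps27rt (chromosome 9, 114982453 to 114982512, minus strand). Rpl10, a large subunit protein encoded on the X chromosome, is likewise matched base for base by Rpl10-ps3 (chromosome 9, 50344297 to 50344356, minus strand). Rps3a1 and Rps3a3, a row of pseudogene class that the symbol rule counts as a member, differ at 2 bases.
Rpl10a: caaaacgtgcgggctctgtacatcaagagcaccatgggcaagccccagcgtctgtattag
Rps27: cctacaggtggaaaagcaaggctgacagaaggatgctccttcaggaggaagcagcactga
Rpl10: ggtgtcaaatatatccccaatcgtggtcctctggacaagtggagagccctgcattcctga
Rps3a1: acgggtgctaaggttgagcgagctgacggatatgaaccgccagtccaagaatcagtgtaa
Rps3a3: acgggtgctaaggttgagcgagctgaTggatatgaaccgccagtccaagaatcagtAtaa

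The row named Rps13 held 0.419, 0.464, 116 and 125 CPM in muscles 1 to 4. Muscles 1 and 2 were near 0 and muscles 3 and 4 were not, a ratio of 299 between the highest and the lowest. In muscles 1 and 2 the row Rps13-ps1 held 31.8 and 29.7 CPM, against 0.0368 and 0 in muscles 3 and 4, and the rest stood in rows naming Rps13 with its copies. Summed over the gene, its copies and the shared rows, the Rps13 family was at 141, 137, 117 and 126 CPM, a ratio of 1.20. The muscles therefore differed in the row that held the counts, far more than in the family sum.

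**Figure D1:**
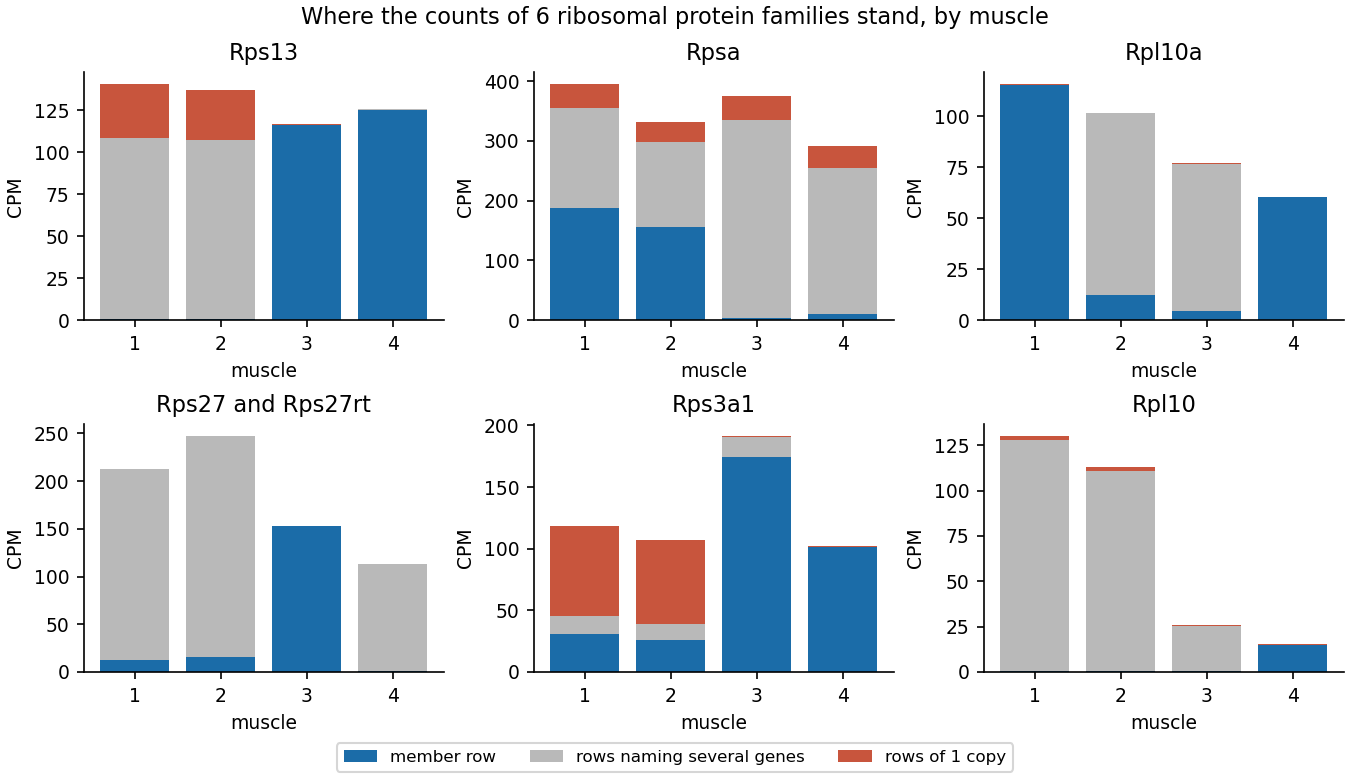
CPM (vertical axes) in the member's own row, in rows naming several genes and in rows of 1 copy, stacked for each muscle (horizontal axes) and 6 families. The Rps13 bars are of similar height, 117 to 141 CPM, while the member row fills them only in muscles 3 and 4.

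Families were built by aligning annotated pseudogenes and copies to the members' coding transcripts, which gave 85 families with 1156 copies. Member rows held 77.5% to 78.8% of the family counts in the 4 muscles, rows of several genes 19.9% to 20.3% and rows of single copies 1.35% to 2.26%. Of 80 families with at least 10 CPM, 46 had at least 90% of their counts in member rows in every muscle. A further 8 had over 90% in 1 muscle and under 50% in another: Rpl3, Rpl10, Rpl10a, Rpl14, Rpl36, Rps3a1, Rps13 and Rps27 with Rps27rt. In 6 families (Rpl9, Rpl37, Rplp2, Rps26, Rps27a and Rpsa) member rows held under 50% in every muscle.

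Rpsa, the laminin receptor protein of the small subunit, had 188, 156, 4.20 and 9.79 CPM in its own row, with muscles 3 and 4 lowest. Its family sum was 395, 331, 375 and 291 CPM, a ratio of 1.36. Rpl10a had 115, 12.3, 4.45 and 60.3 CPM, and here muscles 2 and 3 were lowest, so the pattern did not follow the barcode sets. In those muscles the row naming Rpl10a with Rpl10a-ps1 held 77.3 and 62.96 CPM, and it was listed at 0 in muscles 1 and 4. The Rpl10a family sum was 116, 102, 76.9 and 60.5 CPM.

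Rps27rt reached 153 CPM in muscle 3 and 11.7, 15.1 and 0.956 CPM in muscles 1, 2 and 4. The parent Rps27 stayed below 1 CPM in its own row in each muscle, and rows naming both genes carried the rest. Together the Rps27 family had 212, 247, 153 and 114 CPM. Rps3a1 had 30.6, 25.8, 174 and 101 CPM in its own row, while Rps3a3 had 72.9, 67.4, 0.662 and 0.0869 CPM. Muscles 1 and 2 were low for Rps3a1 and high for Rps3a3.

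Summing rows did not level every family. Rpl10 had 0.366, 0.406, 0.331 and 14.9 CPM in its own row and 130, 113, 26.2 and 15.2 CPM as a family, so the family ratio was still 8.57. Rplp2, an acidic stalk protein, had 343, 309, 105 and 74.3 CPM as a family, of which member rows held 5.72% to 12.1%. Most of it stood in rows that name Rplp2 with the protein-coding gene Wdr89, and the part of each cannot be told apart. Rpl24 was not analysed here.

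The share of all counts in member rows was 1.10%, 1.01%, 0.801% and 0.690% in muscles 1 to 4, or 0.902% ± 0.190 (SD, n = 4). Muscles 1 and 2 were higher than muscles 3 and 4. With the mitochondrially encoded genes left out of the total, the shares were 2.66%, 2.56%, 2.20% and 2.06%, in the same order. With copies and shared rows added, the families took 1.41%, 1.30%, 1.02% and 0.875% of all counts. The muscles also differed in barcode set and mitochondrial share, and the part of these in the order was not tested.

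Levels of single members spanned a wide range although the ribosome holds 1 copy of most of them. CEL-Seq2 counts transcripts from their 3′ end, so a CPM carries no length term. In the members' own rows Rpl4, a large subunit protein, had the highest mean, with 1006, 927, 555 and 538 CPM in muscles 1 to 4. Rpl23, also of the large subunit, had 464, 450, 420 and 369 CPM. Rpl31 had a mean of 309 ± 109 and Rps20 of 265 ± 78.3 CPM (SD, n = 4), and these 2 did not differ beyond their spread.

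**Figure D2:**
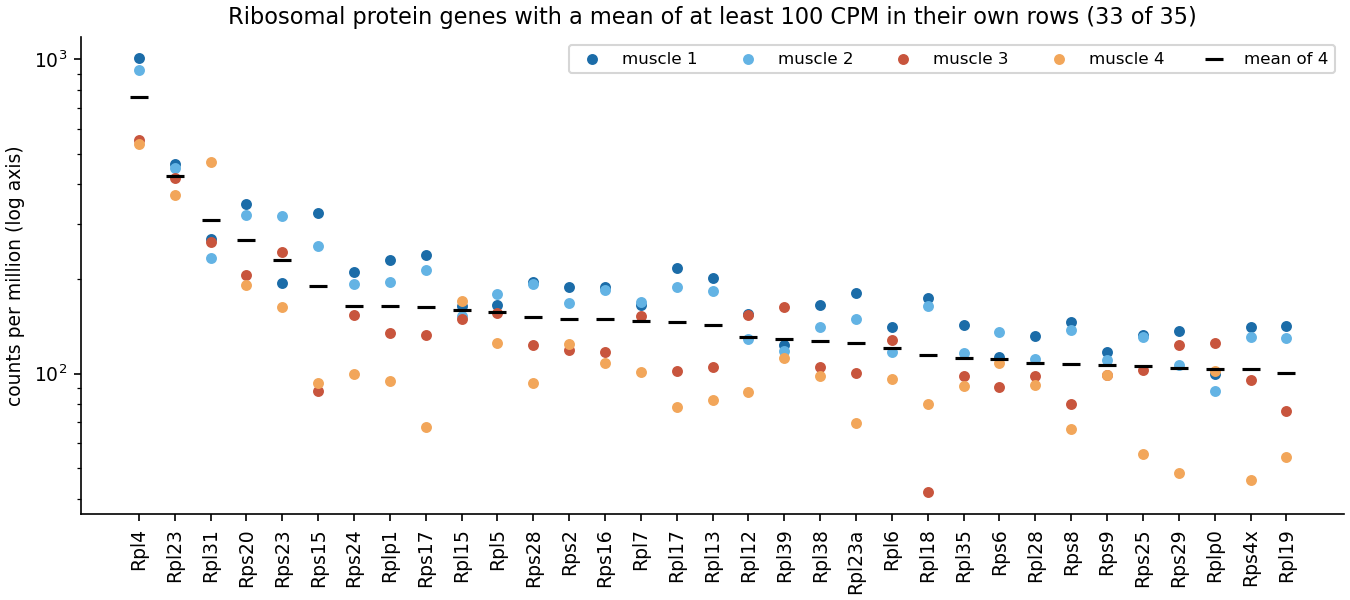
CPM in the member's own row (vertical log axis) for 33 of the 35 members with a mean of at least 100 CPM, with 1 point for each muscle and a bar for the mean. Rpl4 stands highest, at a mean of 756 CPM.

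By role, the median of the members' mean levels was 89.3 CPM for 42 large subunit proteins and 89.4 CPM for 31 small subunit proteins. In all, 79 members had a mean of at least 10 CPM and 10 were under 1 CPM. The 6 lowest were Rps12l1, Rpl10l, Rpl32l, Rps4l, Rps23rg1 and Rpl6l, with means of 0.0109, 0.0145, 0.0348, 0.156, 0.220 and 0.238 CPM. A count of 0 in a muscle allows a level of up to 0.110 to 0.174 CPM by counting error alone. Of these 6, Rpl10l is a paralog of Rpl10 known from the testis, Rps23rg1 is not a ribosome subunit, and the other four are pseudogenes by their class.

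By their own rows, the steadiest members with at least 10 CPM were Rpl15 and Rpl23 of the large subunit and Rps9 of the small subunit. Rpl15 had 164, 152, 149 and 170 CPM, a ratio of 1.14 between the highest and the lowest muscle. Its copies were less steady: the row of the copy Gm8420 held 34.5, 33.4, 0.110 and 0.0435 CPM. Rps9 had a ratio of 1.18 and Rpl23 of 1.26. The widest ratios were 838 for Rps3a3, 299 for Rps13 and 160 for Rps27rt, all genes whose families had their counts in different rows in different muscles.

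Rpl3l, the striated muscle paralog of Rpl3, exceeded its parent in each of the 4 muscles. Rpl3l had 125, 115, 95.999 and 59.95 CPM, and Rpl3, which shapes the entrance to the peptidyl transferase centre, had 23.1, 19.8, 3.31 and 16.45 CPM. Muscle 3 was low for Rpl3 in its own row, which held 19.4% of the family counts there, and with all rows added the Rpl3 family had 23.2, 20.02, 17.1 and 17.01 CPM. Rpl3l then made up 84.3%, 85.2%, 84.9% and 77.9% of the sum of both, or 83.1% ± 3.48 (SD, n = 4). From own rows alone the share was 86.2% ± 7.60.

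The Rpl3l share differed between zones by less than its spread or near it. From own rows, the ends minus the middle differed by -0.109 ± 0.755 percentage points (SD, n = 4; exact sign-flip permutation test over 4 muscles, two-sided, p = 1.0), with 2 muscles in each direction. The first end minus the last end gave -0.596 ± 4.70 points (exact p = 0.75), and the middle minus its flanks -1.05 ± 0.991 points (exact p = 0.25). With copies and shared rows added, the same differences were -1.39 ± 3.08 (exact p = 0.625), -0.0871 ± 5.69 (exact p = 1.0) and 0.173 ± 3.54 points (exact p = 1.0), so that between the middle and its flanks changed sign. With 4 muscles the smallest p this test allows is 0.125.

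Other paralogs were also well expressed. Rps27l, a p53-responsive relative of Rps27, had 52.1, 49.2, 95.8 and 57.9 CPM. Rpl22l1 had 29.96, 27.5, 56.3 and 40.9 CPM beside 43.9, 37.9, 41.75 and 28.8 CPM for its parent Rpl22. Rpl36al had 42.97, 36.1, 55.97 and 21.6 CPM beside 74.96, 66.2, 60.7 and 41.03 CPM for Rpl36a. Muscle 3 was the highest for these 3 paralogs. Rpl7l1 had a mean of 7.88 ± 2.13 CPM against 147 ± 31.2 for Rpl7, and Rpl39l had 0.260 ± 0.219 against 129 ± 22.8 for Rpl39 (SD, n = 4).

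Muscles 1 and 2 were set against muscles 3 and 4 on CPM computed without the mitochondrially encoded genes, since they differ in barcode set. No overlap with a ratio over 1.5 was found in the higher direction for 18.6% and in the lower direction for 15.6% of 9317 genes tested. Among 82 families with a mean of at least 1 on this scale, 24 (29.3%) were higher and 3 (3.66%) lower in muscles 1 and 2. The median ratio was 1.24 for families and 1.02 for all genes. The ratio was 5.11 for Rpl10, 3.14 for Rplp2 and 2.74 for Rps15, and the 3 lower families were Rpl22l1, Rps27l and Rpl31, with ratios of 0.507, 0.573 and 0.626. Rps15 has nearly all its counts in its own row, at 323, 256, 87.9 and 93.2 CPM. Barcode set and muscle cannot be told apart.

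Of 93 members, 83 passed the filter on low counts and were tested with edgeR's quasi-likelihood test on 20 zone sums, with the muscle as block and Benjamini-Hochberg adjustment over 9317 genes. Between the ends and the middle, 1 member was called, and it was lower at the ends, beside 1.45% of all genes in either direction and 0.826% lower. Between the first and the last end no member was called by edgeR, beside 3.18% of all genes, and 3 members (3.61%) had an unadjusted p under 0.05, beside 13.5% of all genes. Between the middle and its flanks no member was called by edgeR, beside 0.0429% of all genes, and 5 members (6.02%) had an unadjusted p under 0.05, beside 5.35% of all genes. DESeq2 called no member in either of these last comparisons.

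The differences of the members were also small. The median log2 difference between ends and middle was -0.0039 for members and -0.0055 for all genes, with 41 members positive and 42 negative. An unadjusted p under 0.05 was reached by 20 members (24.1%), 8 higher and 12 lower at the ends, and by 11.9% of all genes. The middle 50% of members lay between -0.077 and 0.088, and that of all genes between -0.143 and 0.120. The 55 members with at least 50 CPM ranged from -0.30 to 0.23 between ends and middle and from -0.19 to 0.17 between the first and last end. Their median standard errors were 0.066 and 0.079, while that of all genes was 0.171 between ends and middle.

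**Figure D3:**
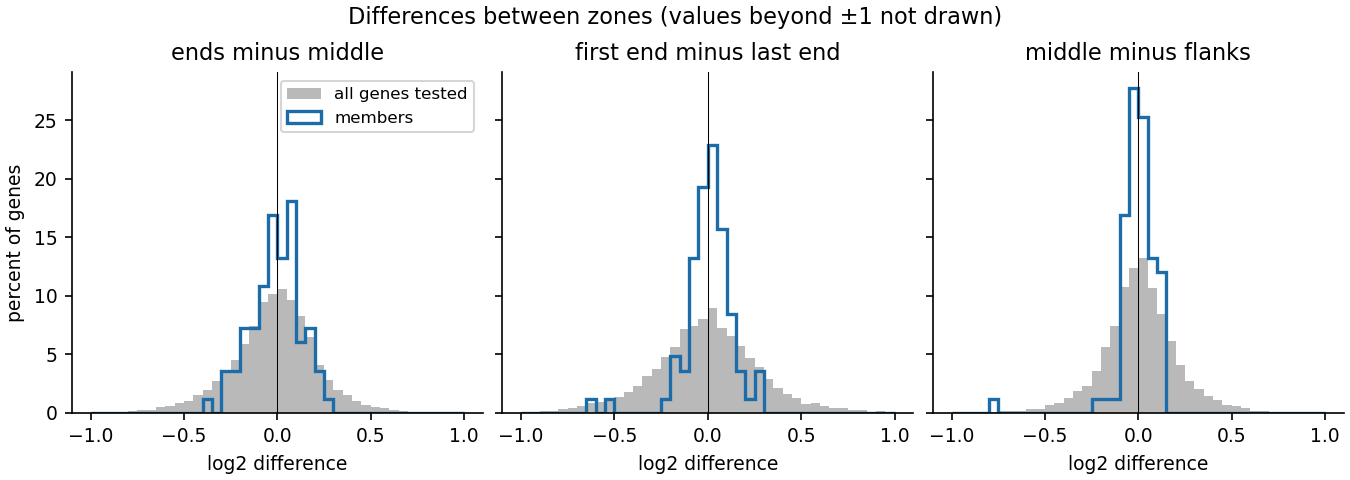
Percent of genes (vertical axis) by log2 difference between zones (horizontal axis) for the 83 members tested and all 9317 genes, in 3 comparisons. Members centre near 0, with medians of -0.0039, 0.015 and 0.00017 from left to right.

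Rpl39, a small large-subunit protein at the peptide exit tunnel (ENSMUSG00000079641, chromosome X, 37082520 to 37085402, minus strand, GENCODE M21), was the member called lower at the ends. In the middle zone it had 126, 109, 198 and 153 CPM in muscles 1 to 4, TMM-scaled like the other zone values. The first zone had 95.6, 109, 136 and 133 CPM and the last zone 102, 98.9, 152 and 118 CPM. The mean of the ends was below the middle in each of the 4 muscles, by -0.35, -0.07, -0.46 and -0.28 on the log2 scale, least in muscle 2. The fitted difference was -0.30 ± 0.07 (SE), with an adjusted p of 0.0103 by edgeR. The call was lost without muscle 1 (-0.28, adjusted p = 0.0676) and without muscle 3 (-0.24, adjusted p = 0.324), and within muscles 1 and 2 alone (-0.21, adjusted p = 0.505), while within muscles 3 and 4 it was -0.38 (adjusted p = 0.0209). It was also lost with 3 zones (-0.11, adjusted p = 0.581), with the outermost sections left out (-0.24, adjusted p = 0.0920) and with no replicate block (-0.31, adjusted p = 1.0).

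Markers of other cell types differed between the same zones. Of 8 fibro-adipogenic progenitor genes, 4 were called lower at the ends by edgeR (Dcn, Gsn, Cxcl14 and Mfap5), and their summed level was 337 to 557 CPM in the end zones and 483 to 637 CPM in the middle. Of 5 Schwann cell genes measured, 4 were called lower, Mbp, Pmp22 and Sox10 among them, with a sum of 9.59 to 40.7 CPM at the ends and 22.6 to 31.998 CPM in the middle. Of 5 macrophage genes measured, C1qb was called lower, with a sum of 18.7 to 37.1 CPM at the ends and 29.6 to 64.8 CPM in the middle. Flt1, 1 of 7 endothelial genes measured, was called lower too, whereas Chad and Prg4 of 5 tendon genes and Adipoq and Cfd of 3 adipocyte genes were called higher at the ends. The other adipocyte gene, Fabp4, was at -0.16 ± 0.08 (SE; edgeR adjusted p = 0.394). The mean of both ends hides differences between them. From the first to the last end, the 5 tendon genes had a median log2 difference (first minus last) of -2.12. All 5 were negative and edgeR called 3. The 5 Schwann cell genes had a median of 0.74, all were positive and edgeR called 2. Of all genes, 3.18% were called between the ends. The part of these cells in the Rpl39 difference was not tested.

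A test of any difference among the 5 zones called 3 members (Rpl39, Rps21 and Rpl6), beside 3.98% of all genes, so the share of members called was near that of all genes. The calls of Rps21 and Rpl6 were lost whichever muscle was left out and with DESeq2, which called Rpl39, Rpl4 and Rps2. That of Rpl39 was lost without muscle 3 and without muscle 4. Rps21, a small subunit protein, had means of 49.6 ± 16.1, 52.9 ± 18.4, 57.9 ± 13.9, 60.8 ± 13.4 and 47.7 ± 10.98 TMM-scaled CPM in zones 1 to 5 (SD, n = 4; edgeR adjusted p = 0.0310). Rpl6, of the large subunit, had 109 ± 13.6, 117 ± 9.64, 125 ± 20.2, 136 ± 8.55 and 115 ± 6.11 TMM-scaled CPM (edgeR adjusted p = 0.0434). Both had their highest mean in zone 4 and lower means at either end. Between ends and middle, Rps21 differed by -0.26 ± 0.08 and missed the threshold (edgeR adjusted p = 0.0739), as did Rpl18 at 0.22 ± 0.07 (adjusted p = 0.0722) and Rps23 at -0.21 ± 0.07 (adjusted p = 0.0915). With 10 zones edgeR called Rps21, Rpl18 and Rps23 (adjusted p = 0.0332, 0.0296 and 0.0205), and DESeq2's test on 5 zones called Rpl18 (adjusted p = 0.0242). No other alternative setting called any of them in this comparison.

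**Figure D4:**
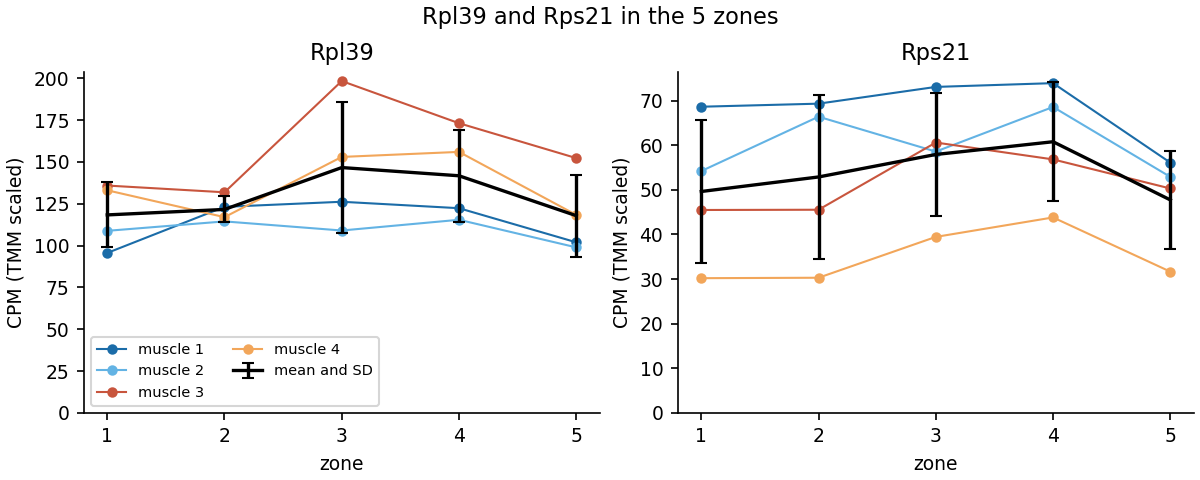
CPM after scaling (vertical axes) of Rpl39 and Rps21 in zones 1 to 5 (horizontal axes), with 1 line for each muscle and the mean and SD of 4 in black. Rpl39 is highest on average in zone 3, at 147 CPM, and Rps21 in zone 4, at 60.8 CPM.

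The assignment between copies touched these calls. With copies and shared rows added by sequence, an alternative chosen after seeing the data, edgeR called 3 families between ends and middle. The share of all genes called with this setting is not given here. Rpl39 remained at -0.30, the Rpl10 family was higher at the ends by 0.36 (adjusted p = 0.00684) and the Rps18 family lower, at -0.30 (adjusted p = 0.0164). With copies added by name, a setting fixed beforehand, edgeR called the same 3. Rpl39 was at -0.30 (adjusted p = 0.0101), Rpl10 at 0.36 (adjusted p = 0.00823) and Rps18 at -0.30 (adjusted p = 0.0139). In their own rows, neither Rpl10 nor Rps18 was called.

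The summed share of the members differed between zones by less than its spread over muscles. The ends minus the middle differed by -0.0369 ± 0.110 percentage points of all counts (SD, n = 4; exact sign-flip permutation test, two-sided, p = 0.75). The first end minus the last end gave -0.102 ± 0.181 points (exact p = 0.375) and the middle minus its flanks 0.0379 ± 0.107 points (exact p = 0.5). With mitochondrially encoded genes left out of the total, the same differences were -0.0854 ± 0.134 (exact p = 0.375), 0.0235 ± 0.192 (exact p = 0.75) and 0.0745 ± 0.158 points (exact p = 0.5), so that between the first and last end changed sign. In single sections the share of non-mitochondrial counts ran from 2.30% to 2.98% in muscle 1, from 2.17% to 2.95% in muscle 2, from 1.78% to 2.65% in muscle 3 and from 1.55% to 2.37% in muscle 4.

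**Figure D5:**
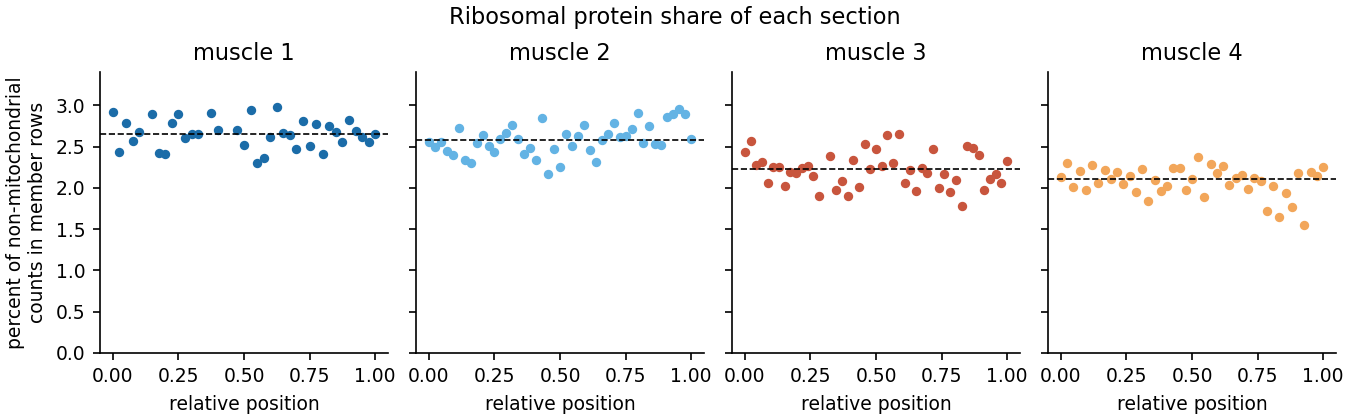
Percent of non-mitochondrial counts in member rows (vertical axis) for each section by its relative position (horizontal axis), with the median of the muscle dashed. The medians are 2.66%, 2.58%, 2.22% and 2.11% in muscles 1 to 4, and the last zone has the highest share in muscle 2 (2.71%) and the lowest in muscle 4 (1.89%).

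Each member was also set against the other members from section to section. For the 55 members with at least 50 CPM, the correlation of each with the sum of all others had a median of 0.31, 0.30, 0.40 and 0.30 in muscles 1 to 4, over 37 to 46 sections that share a muscle, a library and a total. By the median over the 4 muscles Rpl23 had the highest r, with 0.59, 0.57, 0.62 and 0.44, although Rps20 in muscle 1, Rpl37a in muscle 3 and Rps16 in muscle 4 had higher values (0.72, 0.69 and 0.61). The lowest value was that of Rpl19 in muscle 1, Rps3a1 in muscle 2, Rpsa in muscle 3 and Rps4x in muscle 4, at -0.10, -0.15, -0.01 and 0.07, so the member with the lowest r differed between muscles. In those muscles the own rows of Rps3a1 and Rpsa held only 25.8 and 4.20 CPM, and most of their family counts stood in other rows. Both reached 50 CPM only as a mean over muscles. By the median over the 4 muscles Rps13 had the lowest r, with -0.05, -0.15, 0.14 and 0.19. Its own row held 0.419 and 0.464 CPM in muscles 1 and 2, so it too reached 50 CPM only as a mean. The part of this row assignment in the low r of Rps3a1, Rpsa and Rps13 was not tested. These are descriptions without a test. The r of other genes of like level with the same sum is not given here, so variation particular to the members cannot be told apart.

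Other genes of translation were counted by the same test. Between ends and middle, edgeR called none of 41 ribosome biogenesis genes, 29 initiation factors, 9 elongation factors and 28 genes of the mTORC1 pathway, which controls the translation of ribosomal protein messages, and 3, 3, 0 and 6 of them had an unadjusted p under 0.05. The elongation list is wider than its name and includes Eef2k and Tpt1, and the mTORC1 list includes Max and Mxd4. Of all genes, 1.45% were called and 11.9% had an unadjusted p under 0.05. Eef1a2, the muscle form of the factor that brings aminoacyl-tRNA to the ribosome, had 649, 547, 396 and 465 CPM, and the ubiquitous Eef1a1 had 47.9, 45.7, 54.1 and 32.7 CPM. Fau, which encodes a ribosomal protein fused to a ubiquitin-like part, had a mean of 86.1 ± 47.1 CPM (SD, n = 4). Rack1, a scaffold on the small subunit, had 59.9 ± 20.3 CPM (SD, n = 4). The levels of Eef1a2, Eef1a1, Fau and Rack1 are those of their own rows. Copies were sought for the members alone, so counts in copy or shared rows are not included.

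Ribosomal protein messages are known for a pyrimidine tract at their 5′ end. In RefSeq promoters (GRCm38.p6), 66 of 86 protein-coding members were matched. An unbroken run of at least 8 C or T bases on the sense strand within 25 bases of the annotated start was present in 34 of them (51.5%), and in 22.3% of 27025 genes in the table. This is a description of the sequence only.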

How the data were processed

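RNA of single sections from 4 tibialis anterior muscles was sequenced with 6-base molecular identifiers, per the labels' protocols, and the submitters' processing notes name STAR 2.7.7a and the GRCm38 build. How reads were counted, and with which annotation or strand setting, is not given in the sources used here. Deposited tables hold estimated counts: each value turned back into a whole number of identifiers, so the authors had corrected for identifier collisions. The deposited filtered tables hold a normalized signal without ribosomal rows and were read for the list of kept sections alone. Members and lists were chosen with earlier results of these data known.

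Section counts were summed into 5 zones per muscle and rounded. Genes passing filterByExpr were tested with edgeR 4.0.16 (TMM, quasi-likelihood, muscle as block, threshold 0.05 after Benjamini-Hochberg adjustment), in R 4.3.3, since the zones of a muscle come from the same muscle. The code was tested on simulated data. Copies were found with blastn 2.17.0 in GENCODE M21 (at least 90% identity over 100 bases and 50% of the copy). DESeq2 1.42.0 and other settings were alternatives. Named were members called, the 6 highest and 6 lowest, paralogs with their parents, members with over 10% of counts in copy rows (by counts and ranges), and the 3 widest and 3 narrowest ratios between muscles. Rps15, Rpl18 and Rps23 were chosen after their values were seen. The limit given for a count of 0 covers counting error only. Some genes that these rules name are not reported here.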

Additional observations from a re-analysis of the deposited data

Results flagged for a closer look

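In 86 sets of 4 muscles (family levels of at least 10 CPM and the zone differences of the shares), 3 had 1 muscle far from the other three by Dixon's criterion, where chance gives about 1 in 20. The Rpl31 family was at 824 CPM in muscle 4, against 473 to 532 CPM in the others. The Rps23 family was at 201 CPM in muscle 4 and the Rps3 family at 38.9 CPM, both below the other muscles. These flags rest on CPM of all counts, and muscle 4 had the highest mitochondrial share. On CPM without the mitochondrially encoded genes, muscles 1 to 4 had 1262, 1195, 1465 and 2462 for Rpl31. Rps23 had 826, 812, 914 and 601 on that scale, and Rps3 had 121, 124, 139 and 116, with muscle 4 close to the others. Dixon's criterion was not applied on that scale.

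Barcodes that the authors did not keep also held ribosomal protein counts. They made up 0.790% of the counts of 59 such barcodes in muscle 1, 0.953% of 51 in muscle 2, 0.515% of 50 in muscle 3 and 0.552% of 53 in muscle 4.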

How the results depend on the processing

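The count of members called between ends and middle was 1, and it was 3 with DESeq2's test, 6 with 10 zones (3 higher and 3 lower), 3 with copies added by name and 3 with copies added by sequence. It was 0 within muscles 1 and 2, with no replicate block, with 3 zones and with the outermost sections left out, and 0 to 1 when a muscle was left out in turn. Without the block, Rpl39 was at -0.31 with an adjusted p of 1.0. The count called among the 5 zones was 3. It was 0 within muscles 1 and 2, with no replicate block and with 3 zones, 1 within muscles 3 and 4, with the outermost sections left out, with total count scaling and after thinning to the shallowest zone sum, and 5 with copies added by name or by sequence. It was 0 to 2 when a muscle was left out in turn. The first against the last end, and the middle against its flanks, gave 0 members in every alternative run. Leaving mitochondrially encoded genes out of the total raised the share of members from 0.902% to 2.37%. Adding copies and shared rows moved the Rpl3l difference between ends and middle to -1.39 points and that between middle and flanks to 0.173 points. The cause of these changes was not tested. The share of all genes called under each alternative setting is not given here. Whether a setting with more members called also called more of all genes was therefore not tested. With no filter on low counts all 93 members were tested and the counts called were the same, 1, 0, 0 and 3. Depth limits the precision for the 10 members under 1 CPM, which the filter removed.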
